A study of Mus musculus with 2 samples.

Results

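A set of 33 genes of voltage-gated ion channels was followed through droplet-based expression data of mouse brain. They were taken by symbol from the 33696 genes listed for both libraries, and all 33 were found. The set holds 4 sodium channel alpha subunits and 3 beta subunits, 8 calcium channel alpha1 subunits, 15 potassium channel genes and 3 genes of hyperpolarization-activated (HCN) channels. Voltage-gated sodium channels carry the upstroke of the action potential, and potassium channels bring the membrane back and set how fast and how regularly a neuron fires. Calcium channels couple depolarization to transmitter release, dendritic signalling and gene expression, and HCN channels pass a slow inward current near rest. Cortical cell types differ in which of these genes they use: fast-spiking interneurons are known for Kv3 potassium channels and the sodium channel gene Scn1a, and striatal projection neurons for strong A-type potassium current.

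The study compared mice labelled Shank3-/- that were given fluconazole, an antifungal azole, in drinking water for 2 weeks with Shank3-/- mice given vehicle (labelled MOCK). Shank3 encodes a scaffold of excitatory synapses; both groups carry the same deletion, and no wild-type library is part of the comparison. The tissue is brain by the sample labels and prefrontal cortex by the study's design text, and neither gives ages, sexes or the number of mice behind a library. The design text speaks of cells and nuclei, the extraction text of nuclei from frozen tissue only, so droplets are called barcodes here. Each treatment has 1 library (10x Genomics droplets read at the 3′ end, in which unique molecular identifiers, UMIs, count transcripts), so a difference between treatments cannot be told apart from a difference between 2 preparations, no test was possible, and every interval below covers counting error only.

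Deposited were 12637 barcodes and 78380009 UMIs for fluconazole, against 14924 barcodes and 76891692 UMIs for vehicle. After filtering, 10614 fluconazole and 12929 vehicle barcodes remained, with medians of 5259 and 4332 UMIs. The libraries shared 45 deposited barcode sequences, 30 of them among those kept. Shank3 itself was read at 53.6 CPM in the fluconazole and 48.7 CPM in the vehicle library (CPM, counts per 1000000: the UMIs of a gene scaled to that total over the same barcodes). The labels do not give the deleted exons, and reads near the 3′ end can lie outside them, so this value does not check the genotype. The 33 channel genes together held 400843 UMIs in the fluconazole and 402721 in the vehicle library.

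Barcodes were grouped with all channel genes left out of the clustering genes, so that a channel's level did not make the class it is read in. Classes were named from marker genes, and a name such as Pvalb or L6 CT means cells like that type. The 19 separate classes that reached 50 barcodes in both libraries included 5 excitatory neuron subclasses: L2/3 IT and L4/5 IT (upper and middle layer neurons that project within the telencephalon), L5 ET (deep neurons that project out of it), L6 IT and L6 CT (corticothalamic). Pvalb, Sst and Vip interneurons, D1 spiny neurons of striatal type, neuroblasts and 9 non-neuronal classes made up the rest. L5/6 NP (near-projecting) neurons, Lamp5 and Sncg interneurons and D2 spiny neurons were named too, but had fewer than 50 barcodes in a library. The rankings of classes below leave them out. Spiny neurons and neuroblasts are not cells of the adult prefrontal cortex, yet both libraries held them by these markers. The neuron subclasses were small in places: L2/3 IT had 447 fluconazole and 541 vehicle barcodes, Pvalb 66 and 91, Sst 91 and 105, Vip 51 and 51, and D1 spiny 62 and 76. Summed glutamatergic markers stood at 223 and 257 CPM in D1 spiny neurons, against 28.0 and 33.9 CPM in Pvalb interneurons and 1066 and 963 CPM in glutamatergic neurons, so some excitatory transcripts lay within the D1 spiny class.

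Channel transcripts were a neuronal feature in both libraries. The 33 genes summed to 14230 CPM in fluconazole and 15050 CPM in vehicle glutamatergic neurons, to 11830 and 11760 CPM in GABAergic neurons and to 17900 and 19260 CPM in D1 spiny neurons. Oligodendrocyte precursors followed with 6870 and 8102 CPM, then fibroblasts (3014 and 2917 CPM) and neuroblasts (2745 and 2572 CPM). Summed glutamatergic markers stood at 119 and 202 CPM in precursors and at 129 and 132 CPM in fibroblasts, so some excitatory transcripts lay within both classes. Border macrophages held 379 and 379 CPM, of which Cacna1d made up 131 and 111 CPM. For 22 of the 33 genes the class with the highest CPM was the same in both libraries, and for 25 it was a neuron subclass in both. D1 spiny neurons were highest for 8 of those 22, Pvalb interneurons for 4 and oligodendrocytes for 3.

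**Figure D1:**
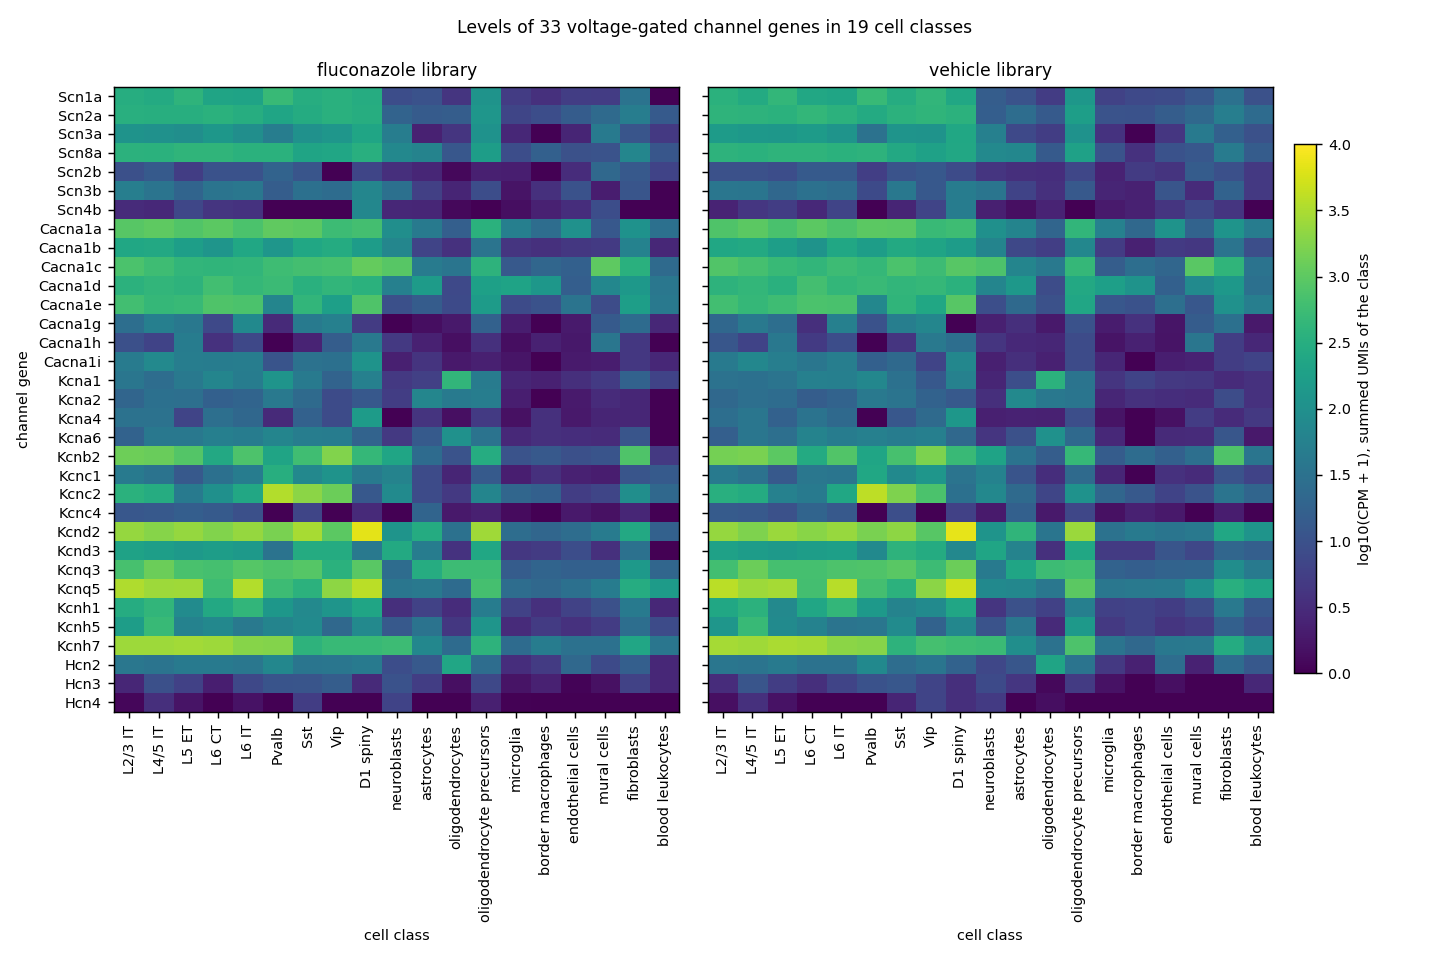
Level of each of the 33 channel genes (rows) in 19 cell classes (columns), as log10 of CPM plus 1 on the colour scale, fluconazole library left and vehicle library right. Colours compare a gene across classes, not genes with each other. Neuron subclasses and oligodendrocyte precursors hold most of the signal, and the bright squares of Kcnc2 in Pvalb (3483 and 4022 CPM) and Kcnd2 in D1 spiny neurons (6938 and 7063 CPM) appear in both libraries.

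The pore-forming sodium channel genes were spread over all neuron subclasses with modest differences. Scn1a, whose channel drives firing of inhibitory neurons, was highest in Pvalb interneurons, at 503 CPM in the fluconazole (95% interval 442 to 569) and 495 CPM in the vehicle library (431 to 565). L5 ET neurons came next with 403 and 447 CPM; their interval in the vehicle library (417 to 479) overlapped that of Pvalb, so this order held beyond counting error in the fluconazole library only. Scn2a, the main sodium channel gene of excitatory axons, was highest in L6 CT neurons (360 and 447 CPM), within counting error of Vip interneurons, and lowest among the 9 subclasses in Pvalb (222 and 273 CPM). Scn8a, which sets the threshold at the axon initial segment, lay between 214 and 407 CPM in the fluconazole and between 194 and 397 CPM in the vehicle subclasses, with L6 CT and L5 ET neurons within counting error of each other at the top. Scn3a, best known from the developing brain, stood apart in D1 spiny neurons at 227 CPM (187 to 272) and 238 CPM (193 to 290), above L6 CT neurons with 128 and 158 CPM. It made up 19.6% and 21.4% of the sodium alpha subunit UMIs in D1 spiny and 19.7% and 18.7% in all spiny neurons. Outside the neural lineage Scn3a was read in mural cells (43.9 and 42.9 CPM), whereas border macrophages had 0 UMIs in both libraries, which allows up to 3.96 and 3.98 CPM.

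Sodium channel beta subunits, which anchor and tune the pore, were far sparser. Scn4b, which is linked to resurgent sodium current, was found mainly in spiny neurons: the D1 class held 70.4 CPM in the fluconazole (49.3 to 97.5) and 46.1 CPM in the vehicle library (27.7 to 71.9). Mural cells, next in order, held 7.93 and 6.23 CPM, and Pvalb interneurons had 0 UMIs in both libraries, which allows up to 6.01 and 6.78 CPM. These D1 spiny values rest on 36 and 19 UMIs. D2 spiny neurons, too few for comparison in the vehicle library with 48 barcodes, read 53.6 and 75.5 CPM, so both kinds of spiny neuron held it. Scn3b was also highest in D1 spiny neurons (68.4 and 46.1 CPM), but its intervals overlapped those of cortical subclasses. Scn2b was low everywhere, with mural cells highest at 21.7 and 13.9 CPM, within counting error of neurons.

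Among the L-type calcium channel genes, Cacna1c was shared between neurons and muscle-like cells. It read 1148 CPM in fluconazole and 924 CPM in vehicle D1 spiny neurons, 1034 and 953 CPM in mural cells, where the L-type channel drives contraction, and 926 and 766 CPM in neuroblasts. D1 spiny and mural intervals overlapped in both libraries. D2 spiny neurons read Cacna1c at 1130 and 950 CPM. Cacna1d, an L-type gene that opens at lower voltage, was highest in L6 CT neurons at 607 and 643 CPM, within counting error of Pvalb interneurons in the fluconazole library (541 and 517 CPM). Microglia read Cacna1d at 206 CPM (199 to 213) in the fluconazole and 178 CPM (171 to 184) in the vehicle library, and border macrophages at 131 and 111 CPM. Endothelial cells read the same gene at 14.5 and 15.9 CPM.

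Genes of the Cav2 group, which trigger transmitter release, set Pvalb interneurons apart from excitatory and spiny neurons through Cacna1e. Cacna1a, the P/Q-type gene, was highest in Pvalb interneurons (1059 and 994 CPM), within counting error of L4/5 IT neurons (1033 and 973 CPM). Cacna1e, the R-type gene, was low in the same Pvalb cells, at 64.1 CPM (43.8 to 90.5) and 70.0 CPM (47.6 to 99.4), while L6 CT neurons read 781 and 749 CPM and D1 spiny neurons 794 and 907 CPM. Of the Cav2 UMIs of Pvalb interneurons 84.8% and 80.7% were Cacna1a and 5.13% and 5.69% Cacna1e; in D1 spiny neurons these shares were 39.8% and 34.7% for Cacna1a and 50.1% and 55.5% for Cacna1e. These are shares of UMIs and not of channels, and only the same gene is compared between classes. Cacna1b, the N-type gene, was low in L6 CT neurons (119.5 and 113 CPM) and stood at 261 and 272 CPM in L4/5 IT neurons. In endothelial cells Cacna1a still read 106 CPM (100 to 112) and 113 CPM (107 to 120).

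The low-voltage-activated Cav3 (T-type) genes, which help produce burst firing, differed in the neurons that held them. Cacna1g stood at 78.3 CPM in fluconazole and 54.7 CPM in vehicle L6 IT neurons, yet at 6.68 and 2.50 CPM in L6 CT neurons, where 17 and 4 UMIs were found; Vip interneurons read 53.6 and 68.5 CPM. Cacna1h was found in L5 ET neurons (47.0 and 38.5 CPM) and mural cells (36.5 and 36.0 CPM), against 5.43 and 5.49 CPM in L4/5 IT neurons; Vip interneurons read 14.3 and 40.0 CPM. Cacna1i led in D1 spiny neurons (111.5 and 70.3 CPM), with overlapping intervals for L4/5 IT neurons (76.6 and 69.6 CPM).

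Genes of the Kv1 group, most of them delayed rectifiers of axons, had their highest levels in glia with 1 exception. Kcna1, which in axons flanks the node of Ranvier, was highest in oligodendrocytes at 435 CPM (416 to 455) in the fluconazole and 366 CPM (349 to 384) in the vehicle library, well above Pvalb interneurons with 118 and 70.0 CPM. Kcna6 was likewise highest in oligodendrocytes (106 and 105 CPM). Kcna2 was highest in astrocytes at 68.3 and 75.5 CPM, though its interval overlapped that of the next class in both libraries. Kcna4, an A-type Kv1 gene, belonged instead to spiny neurons: D1 spiny neurons read 156 CPM (124 to 195) and 128.5 CPM (96.3 to 168), L4/5 IT neurons 31.7 and 36.2 CPM, while Pvalb interneurons held 1 UMI in the fluconazole and 0 in the vehicle library. The only Kv2 gene among the 33, Kcnb2, a somatic delayed rectifier, was highest in Vip interneurons (1766 and 1627 CPM), followed by L2/3 IT neurons in the fluconazole (1314 CPM) and L4/5 IT neurons in the vehicle library (1559 CPM, within counting error). It was low in Pvalb interneurons (218 and 224 CPM) and L6 CT neurons (254 and 273.5 CPM), and fibroblasts read it at 793 and 788 CPM.

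Of the Kv3 genes, whose fast-closing channels let interneurons fire at high rates, Kcnc1 and Kcnc2 were highest in inhibitory neurons. Kcnc2 stood at 3483 CPM (3321 to 3650) in fluconazole and 4022 CPM (3837 to 4213) in vehicle Pvalb interneurons, at 2031 and 1661 CPM in Sst interneurons and at 1265 and 742 CPM in Vip interneurons. L5 ET neurons held 43.4 and 56.1 CPM and D1 spiny neurons 11.7 and 29.1 CPM, while the median over the neuron subclasses was 295 and 289 CPM. Kcnc1 was also highest in Pvalb interneurons, with 320 CPM (273 to 374) and 244 CPM (200 to 295) and 114 and 126 CPM in Vip and 72.2 and 78.2 CPM in Sst interneurons. Kcnc4 was low everywhere, with at most 18.2 CPM (astrocytes, fluconazole) and 18.7 CPM (L6 CT, vehicle).

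Of the 33 genes, 24 have a promoter window in the RefSeq table used (GRCm38.p6, from 250 bases before to 50 after the start), and 4 windows are shown as examples from genes highest in Pvalb interneurons (Kcnc1, Kcnc2) or D1 spiny neurons (Kcna4, Scn4b), picked after their values were seen. Capitals mark every match to GGGCGG, the core of a GC box, on either strand; 35.7% of all 32851 windows hold it, and 14 of the 24 members with a window do in at least 1 of their windows. Kcnc2 has 4 listed starts, of which the first in the table is printed. The window of Kcnc1 has 74.7% G and C with 3 matches, that of Kcnc2 52.7% with 1 match, that of Kcna4 67.7% with 3 matches and that of Scn4b 66.3% with none; the median over all windows is 52.7%. A match is a run of letters and not a measured binding site.
Kcnc1, chr7:46396218-46396517, plus strand: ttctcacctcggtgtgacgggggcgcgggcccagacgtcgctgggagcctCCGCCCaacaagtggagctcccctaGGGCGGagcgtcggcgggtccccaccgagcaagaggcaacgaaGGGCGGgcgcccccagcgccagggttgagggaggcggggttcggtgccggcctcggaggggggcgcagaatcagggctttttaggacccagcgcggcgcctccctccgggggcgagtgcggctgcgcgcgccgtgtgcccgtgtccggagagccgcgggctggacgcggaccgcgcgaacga
Kcnc2, chr10:112269767-112270066, plus strand: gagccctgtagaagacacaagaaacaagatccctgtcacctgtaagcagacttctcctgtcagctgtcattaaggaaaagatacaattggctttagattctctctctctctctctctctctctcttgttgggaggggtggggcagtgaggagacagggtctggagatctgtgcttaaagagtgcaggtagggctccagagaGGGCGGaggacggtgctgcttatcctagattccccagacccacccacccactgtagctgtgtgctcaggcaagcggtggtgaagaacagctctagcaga
Kcna4, chr2:107290339-107290638, plus strand: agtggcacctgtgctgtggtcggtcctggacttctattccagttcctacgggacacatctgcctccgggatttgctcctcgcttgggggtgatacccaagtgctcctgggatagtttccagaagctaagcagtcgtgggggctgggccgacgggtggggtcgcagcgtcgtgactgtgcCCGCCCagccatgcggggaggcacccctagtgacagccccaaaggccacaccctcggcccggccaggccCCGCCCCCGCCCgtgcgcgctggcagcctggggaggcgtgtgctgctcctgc
Scn4b, chr9:45138374-45138673, plus strand: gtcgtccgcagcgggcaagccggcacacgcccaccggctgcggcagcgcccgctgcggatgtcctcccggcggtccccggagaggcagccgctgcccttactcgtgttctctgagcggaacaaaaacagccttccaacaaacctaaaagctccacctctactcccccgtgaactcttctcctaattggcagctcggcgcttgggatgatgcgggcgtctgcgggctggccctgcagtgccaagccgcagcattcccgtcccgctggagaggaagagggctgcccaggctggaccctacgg
The pair highest in Pvalb interneurons, Kcnc1 and Kcnc2, differs in base composition in these windows, as do their numbers of CG dinucleotides, 41 and 3.

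Kcnd2 is the main gene of the subthreshold A-type current. It was highest in D1 spiny neurons, with 6938 CPM (6712 to 7170) in the fluconazole and 7063 CPM (6808 to 7324) in the vehicle library. Sst interneurons, next of the 19 classes in the fluconazole library, read 2999 and 2057 CPM. Of the classes with too few barcodes, D2 spiny neurons read 5759 and 6521 CPM and L5/6 NP neurons 3094 and 3242 CPM. Oligodendrocyte precursors, glia with their own voltage-gated currents, read Kcnd2 at 2641 and 2475 CPM, above L2/3 IT neurons (2333 and 2322 CPM), whereas mature oligodendrocytes read 30.6 and 35.3 CPM. Its relative Kcnd3 was, of the 19 classes, highest in Vip interneurons in the fluconazole (293 CPM) and in Sst interneurons in the vehicle library (380 CPM). Sncg interneurons, with only 33 and 32 barcodes, read more Kcnd3 in both libraries, at 485 and 500 CPM. Lamp5 interneurons read it at 383 and 369 CPM. Of the M-current genes, which help hold a neuron below threshold, Kcnq5 stood at 3497 and 3778 CPM in L6 IT neurons but at 578 and 648 CPM in L6 CT neurons, and at 3825 and 4927 CPM in D1 spiny neurons. D2 spiny neurons read Kcnq5 at 3187 and 3702 CPM. Kcnq3 was flatter across neurons, highest in L4/5 IT neurons in the fluconazole (1284 CPM) and in D1 spiny neurons in the vehicle library (1270 CPM), and oligodendrocytes read it at 544 and 556 CPM.

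In the ether-a-go-go (EAG) group, Kcnh5 was highest in L4/5 IT neurons, at 486 CPM (467 to 506) and 499 CPM (479 to 520), against 165 and 125 CPM in L2/3 IT neurons. Kcnh7, of the ERG branch that dampens repeated firing, was highest in L5 ET neurons (2772 and 3123 CPM), not far above other excitatory neurons such as L2/3 IT (2605 and 2891 CPM), and read 383 and 378 CPM in Sst interneurons. Kcnh1 was highest in L4/5 IT neurons in the fluconazole (428 CPM) and in L6 IT neurons in the vehicle library (446 CPM). Of the HCN genes, Hcn2 was highest in oligodendrocytes at 236 CPM (222 to 251) and 214 CPM (200 to 227), with Pvalb interneurons next at 70.1 and 76.8 CPM. Hcn3 reached 14.3 CPM at most in the fluconazole library (Vip) and 11.2 CPM in the vehicle library (Sst). Hcn4 stayed at or below 5.45 and 5.71 CPM in all 19 classes.

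**Figure D2:**
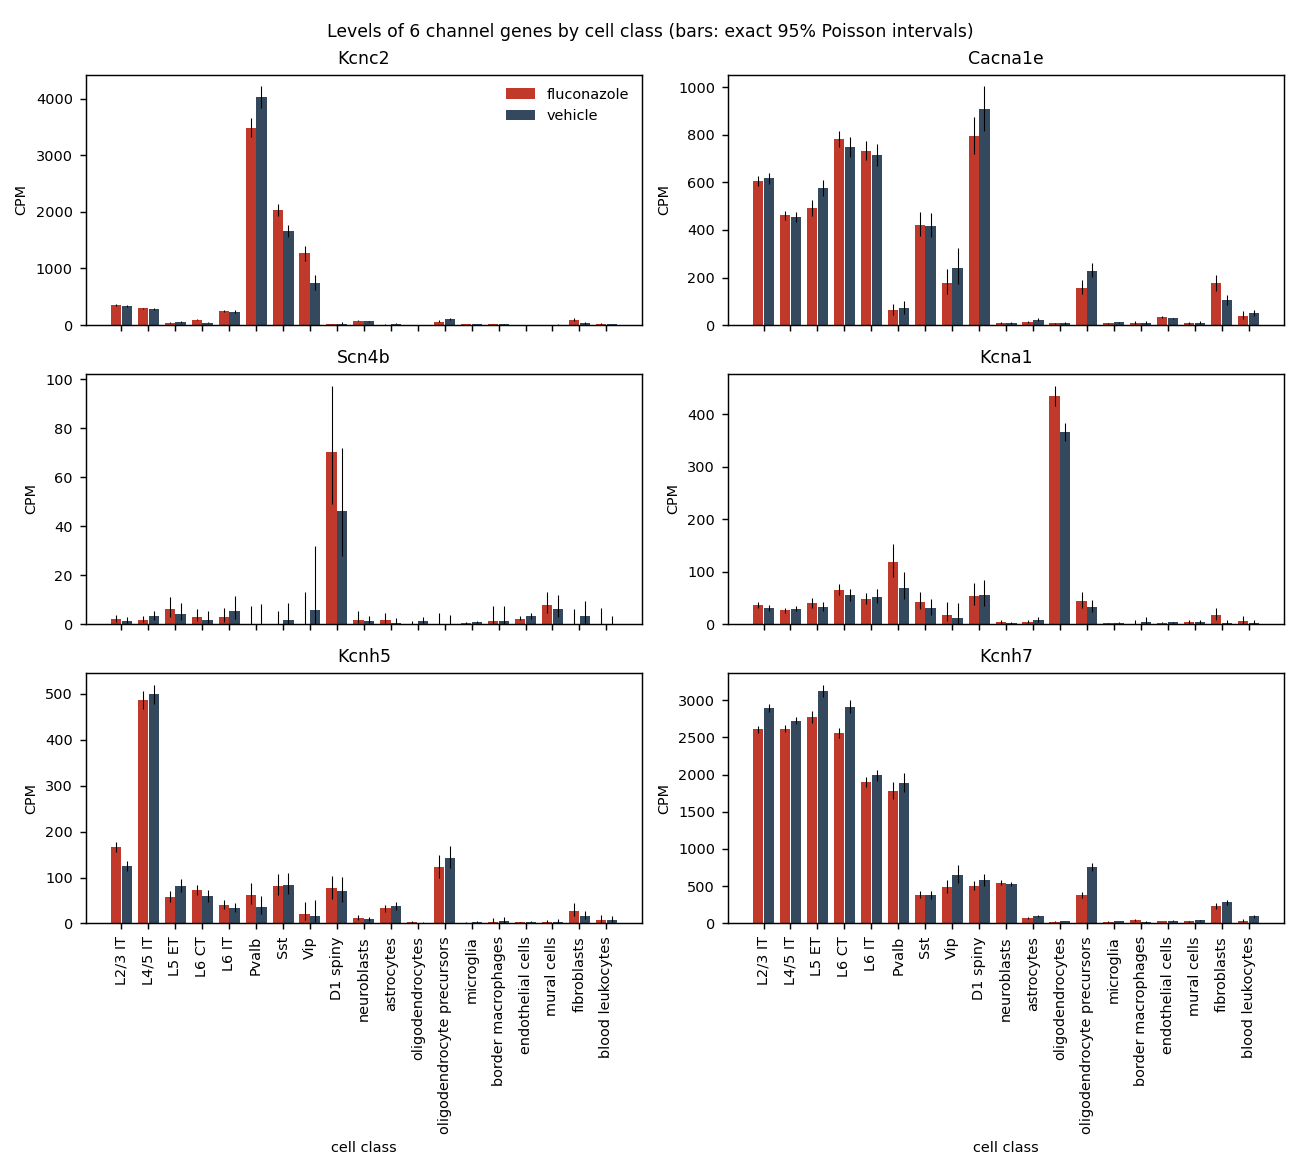
CPM of Kcnc2, Scn4b, Kcnh5, Cacna1e, Kcna1 and Kcnh7 in 19 classes, fluconazole (red) left of vehicle (dark blue) in each pair, with exact 95% Poisson intervals. Kcnc2 peaks in Pvalb, Scn4b in D1 spiny neurons, Kcnh5 in L4/5 IT neurons and Kcna1 in oligodendrocytes in both libraries, and Cacna1e is low in Pvalb (64.1 and 70.0 CPM).

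The treatments were compared class by class as the CPM in the fluconazole library over that in the vehicle library, on the log2 scale. A gene counted as measured in a class where both libraries together gave it 100 UMIs or more, and as past the fold where the ratio was 0.32 or more from 0 on the log2 scale, in either direction. In glutamatergic neurons 31 of the 33 channel genes were measured; 1 was higher past the fold, where 6.54% of all 13257 measured genes were, and 2 were lower, where 11.3% of all genes were. The members' median was -0.02 and that of all measured genes -0.03. Both shares of members were below those of all genes. Cacna1g read 39.6 CPM in the fluconazole and 28.6 CPM in the vehicle library, a log2 ratio of 0.47 (0.29 to 0.64). Scn3a read 110 and 147 CPM, a ratio of -0.42 (-0.51 to -0.33). Hcn3 read 4.38 and 5.66 CPM from 75 and 86 UMIs, a ratio of -0.37 whose interval (-0.84 to 0.09) includes 0. With each barcode thinned to 2000 UMIs Cacna1g stood at 0.84 and Scn3a at -0.30, under the fold.

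Several general measures moved with the libraries in the same neurons. Median depth was 10630 UMIs in fluconazole and 7493 UMIs in vehicle glutamatergic barcodes. Ribosomal protein transcripts were 3348 and 4319 CPM (79 of 83 genes lower), 6 nuclear-retained RNAs 57620 and 51070 CPM (5 of 6 higher), and the 3 microglial C1q genes, a reading of free RNA, 215 and 312 CPM (3 of 3 lower). All 6 glutamatergic markers were higher, at 1066 and 963 CPM in sum (log2 ratio 0.15, 0.12 to 0.18). With free RNA subtracted, and with totals that leave out ribosomal, mitochondrial and nuclear-retained RNAs, the same 3 channel genes were past the fold. The part of depth in the ratios was addressed only by the thinning above.

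**Figure D3:**
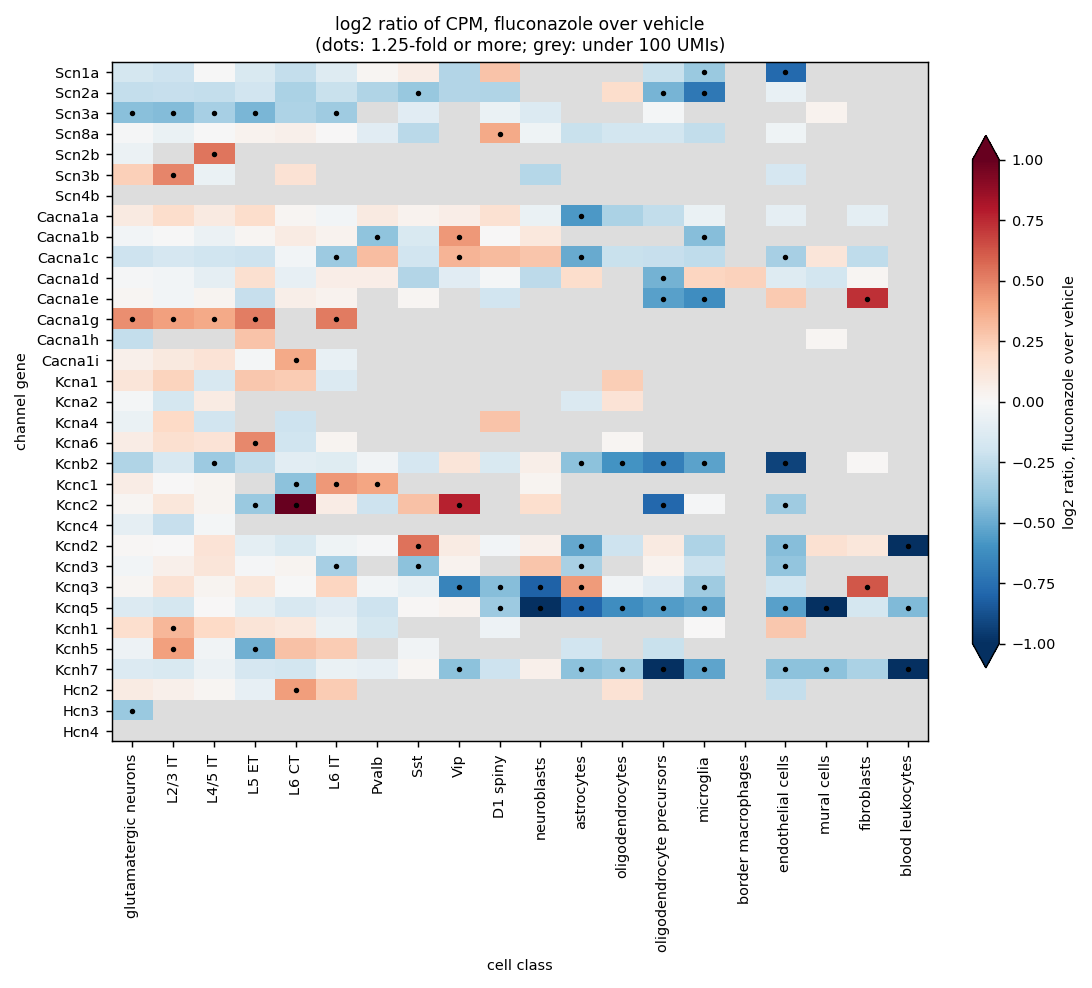
log2 ratio of CPM, fluconazole over vehicle, for the 33 channel genes (rows) in glutamatergic neurons, 9 neuron subclasses, neuroblasts and 9 non-neuronal classes (columns). Red is higher and blue lower in the fluconazole library, dots mark 0.32 or more from 0, and grey squares had under 100 UMIs. Cacna1g is red in each excitatory column with enough UMIs, and Kcnq5 and Kcnh7 are blue across most non-neuronal columns.

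Over the 9 neuron subclasses, 191 pairs of a channel gene and a subclass were measured. Scn4b, Hcn3 and Hcn4 were measured in none. Of the 191 pairs 19 were higher and 17 lower past the fold, beside 10.3% higher and 11.7% lower among all 39780 measured pairs of a gene and a subclass. All subclasses come from the same 2 libraries, so agreement between them is not replication. Cacna1g was higher past the fold in each of the 4 subclasses in which it was measured. It read 27.3 CPM in fluconazole and 20.5 CPM in vehicle L2/3 IT neurons, 52.8 and 40.6 CPM in L4/5 IT, 38.5 and 27.0 CPM in L5 ET, and 78.3 and 54.7 CPM in L6 IT neurons. Its log2 ratios ran from 0.38 to 0.52, with intervals above 0 in L2/3 IT, L4/5 IT and L6 IT neurons and from -0.05 to 1.08 in L5 ET neurons. In inhibitory neurons this T-type gene was not higher: GABAergic neurons as a whole read it at 30.3 and 40.4 CPM (-0.41, -0.93 to 0.10). Within L4/5 IT neurons the 3 clusters differed, at 0.94, -0.18 and 0.28.

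Scn3a was lower in all 7 subclasses in which it was measured and past the fold in 4. L2/3 IT neurons read 113 and 154 CPM (-0.44, -0.60 to -0.28), L4/5 IT 105 and 132.5 CPM (-0.34, -0.51 to -0.16), L5 ET 94.0 and 129 CPM (-0.46, -0.76 to -0.16) and L6 IT 92.4 and 118 CPM (-0.35, -0.68 to -0.02). L6 CT neurons were just inside the fold at 128 and 158 CPM (-0.31). In D1 spiny neurons, where Scn3a is most abundant, the values were 227 and 238 CPM (-0.07, -0.47 to 0.34). Scn2a was lower in 9 of 9 subclasses, between -0.38 and -0.19, and passed the fold in Sst interneurons only, at 287 and 373 CPM (-0.38, -0.66 to -0.10). In glutamatergic neurons as a whole Scn2a read 334 and 393 CPM (-0.24, -0.29 to -0.18). Kcnb2 and Kcnh7 were each lower in 8 of 9 subclasses and past the fold in 1, L4/5 IT for Kcnb2 and Vip for Kcnh7. Cacna1a was higher in 8 of 9, always within the fold.

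**Figure D4:**
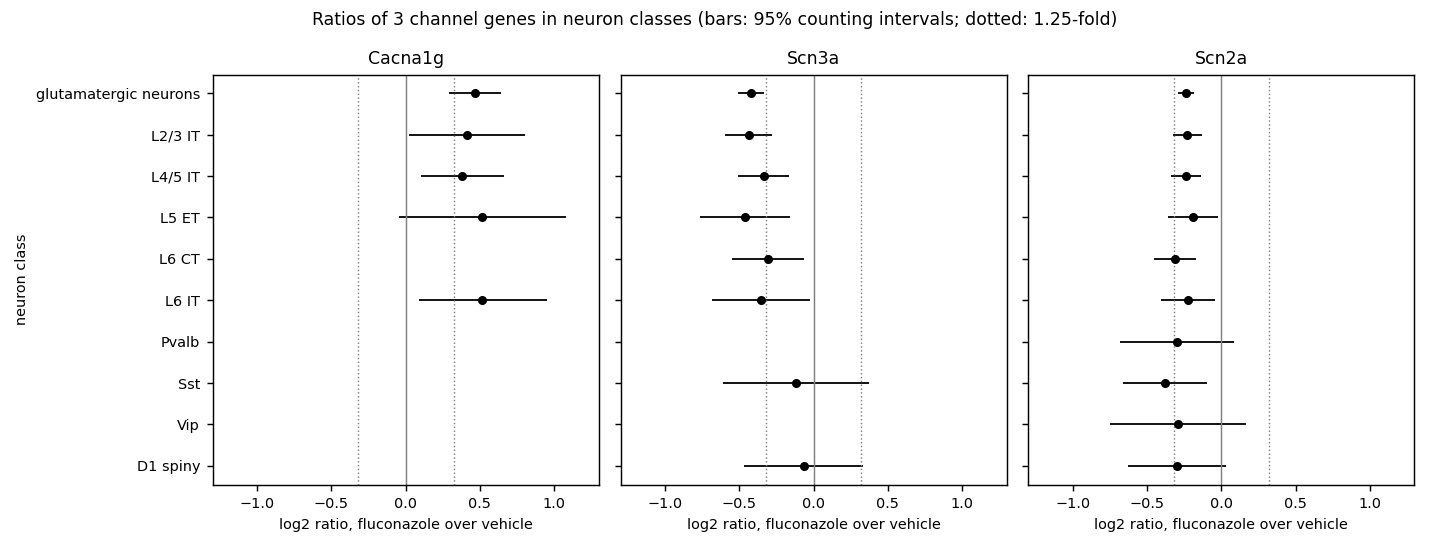
Fluconazole over vehicle ratio of CPM (log2) for Cacna1g, Scn3a and Scn2a in glutamatergic neurons and the neuron subclasses in which each had 100 UMIs or more, with 95% counting intervals; dotted lines mark 0.32 either side of 0. Cacna1g lies right of the upper line in all its excitatory classes (0.38 to 0.52), and Scn2a left of 0 in all 9 subclasses (-0.38 to -0.19).

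Other differences among excitatory neurons were each found in few subclasses. In L2/3 IT neurons the EAG genes Kcnh5 (165 and 125 CPM, 0.41, 0.25 to 0.56) and Kcnh1 (302 and 239 CPM, 0.33, 0.22 to 0.45) were higher, and so was the beta subunit gene Scn3b (50.2 and 35.8 CPM, 0.49, 0.20 to 0.78). Clusters within L2/3 IT neurons differ in Kcnh5: cluster 2 read 262.5 and 208 CPM and cluster 0 80.3 and 77.3 CPM, and cluster 2 gave 200 of 447 fluconazole and 202 of 541 vehicle barcodes. In L4/5 IT neurons Kcnb2 was lower at 1209 and 1559 CPM (-0.37, -0.42 to -0.32), in each of 3 clusters (-0.42 to -0.28), and Scn2b was higher at 12.7 and 8.78 CPM (0.54, -0.06 to 1.15). L5 ET neurons had lower Kcnh5 (58.6 and 82.0 CPM, -0.48, -0.87 to -0.10) and Kcnc2 (43.4 and 56.1 CPM, -0.37, -0.83 to 0.08) and higher Kcna6 (39.1 and 28.1 CPM, 0.48, -0.08 to 1.04). In the vehicle library 18.8% of those Kcnh5 UMIs lay in 1 barcode. L6 IT neurons had lower Cacna1c (425 and 546 CPM, -0.36, -0.51 to -0.21) and Kcnd3 (144 and 182 CPM, -0.33, -0.60 to -0.07) and higher Kcnc1 (47.1 and 34.9 CPM, 0.43, -0.11 to 0.99).

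The highest of the 191 ratios was found in L6 CT neurons. Kcnc2 read 99.1 CPM (87.2 to 112) in fluconazole and 43.7 CPM (34.1 to 55.2) in vehicle L6 CT neurons, a log2 ratio of 1.18 (0.79 to 1.58), from 252 and 70 UMIs in 72 of 255 and 37 of 241 barcodes. One of the 2 L6 CT clusters carried it, with 121 and 43.2 CPM (204 barcodes in each library); the other read 40.3 and 46.2 CPM. Without the single richest barcode of each library the ratio was 1.27. By CPM Kcnc2 is highest in interneurons here. Glutamatergic neurons still held 4331 fluconazole and 3785 vehicle UMIs of it, beside 4470 and 4081 in GABAergic neurons. The median of Kcnc2 over the neuron subclasses was 295 CPM in the fluconazole and 289 CPM in the vehicle library, above L6 CT neurons. Summed GABAergic markers in L6 CT neurons were 12.2 CPM in the fluconazole and 26.9 CPM in the vehicle library. Markers of other excitatory subclasses in L6 CT neurons are not given here, and the source of the Kcnc2 ratio was not tested. The remaining L6 CT values past the fold had intervals that include 0: Cacna1i at 46.4 and 35.6 CPM (0.38), Hcn2 at 41.7 and 31.2 CPM (0.42) and Kcnc1 at 28.7 and 38.1 CPM (-0.41).

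Interneuron subclasses had fewer barcodes and wider intervals. Sst interneurons had higher Kcnd2 at 2999 CPM (2870 to 3132) in the fluconazole and 2057 CPM (1946 to 2172) in the vehicle library, a ratio of 0.54 (0.44 to 0.65), positive in each of 4 clusters (0.20 to 1.32). The other A-type gene, Kcnd3, was lower in the same cells at 286 and 380 CPM (-0.41, -0.69 to -0.13), but its 4 clusters ran from -1.21 to 0.85. Pvalb interneurons had higher Kcnc1 (320 and 244 CPM, 0.39, 0.03 to 0.76) and lower Cacna1b (126 and 167 CPM, -0.41, -0.91 to 0.10), while Kcnc2, their leading Kv3 gene, was -0.21 (-0.30 to -0.11). In Vip interneurons Kcnc2 was higher at 1265 and 742 CPM (0.77, 0.48 to 1.07), with 16.4% and 18.5% of its UMIs in 1 barcode of each library, and at 0.81 without those barcodes. Vip interneurons also had lower Kcnq3 (354 and 559 CPM, -0.66, -1.08 to -0.24) and Kcnh7 (490 and 651 CPM, -0.41, -0.78 to -0.04), and higher Cacna1b (293 and 217 CPM, 0.43, -0.14 to 1.03) and Cacna1c (686 and 542 CPM, 0.34, -0.02 to 0.71). The Kcnh7 value was -0.24 without the richest barcodes.

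D1 spiny neurons had lower M-current genes, Kcnq5 at 3825 and 4927 CPM (-0.37, -0.46 to -0.27) and Kcnq3 at 944.5 and 1270 CPM (-0.43, -0.61 to -0.25), and higher Scn8a at 328.5 and 252 CPM (0.38, 0.02 to 0.75). The class is made of 2 clusters that came mostly from different libraries, 15 fluconazole and 63 vehicle barcodes in one, 47 and 13 in the other. Within those clusters Kcnq5 stood at -0.21 and -0.09 and Kcnq3 at -0.80 and -0.15, so these ratios cannot be told apart from the mix of clusters.

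Beside the 33, 71 further genes of channel pores, auxiliary subunits, inward rectifiers and leak channels served as the wider family. In glutamatergic neurons 52 of them were measured, 8 higher (15.4%, against 6.54% of all genes) and 5 lower (9.62%, against 11.3% of all genes) past the fold, with a median of 0.05. The inward rectifier gene Kcnj2 (3.33 and 6.91 CPM, -1.06, -1.55 to -0.58) and the silent Kv subunit gene Kcng1 (12.2 and 6.25 CPM, 0.96, 0.61 to 1.33) were furthest apart. Calcium channel beta subunit genes Cacnb1 (32.97 and 21.3 CPM, 0.63, 0.43 to 0.83) and Cacnb3 (15.9 and 12.1 CPM, 0.39, 0.12 to 0.67) were higher, as was Cacna1f (6.71 and 4.74 CPM, 0.50, 0.06 to 0.95). Scn7a, a sodium channel relative that senses sodium level (4.84 and 7.37 CPM, -0.61, -1.03 to -0.18), and the silent subunit gene Kcng2 (6.01 and 8.75 CPM, -0.54, -0.93 to -0.16) were lower. Apart from Cacnb1, these were genes of few UMIs.

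In non-neuronal classes the channel ratios leaned to one side. Of 94 measured pairs of a channel gene and a non-neuronal class, 38 were lower and 3 higher past the fold, where 9.61% of all 57525 pairs were lower and 9.67% higher. In microglia 8 of 16 channel genes were lower (6.47% of all genes), in endothelial cells 8 of 17 (7.27%), in oligodendrocyte precursors 7 of 16 (15.2%), in astrocytes 7 of 12 (11.3%) and in oligodendrocytes 3 of 13 (6.31%). Kcnq5 and Kcnh7 were each lower past the fold in 7 of the 8 classes in which they were measured; both are abundant in cortical excitatory neurons. In microglia Kcnq5 read 25.8 CPM in the fluconazole and 36.9 CPM in the vehicle library (-0.51, -0.70 to -0.32) and Kcnh7 23.7 and 34.2 CPM (-0.53, -0.73 to -0.33), while border macrophages read 21.1 and 39.8 CPM of Kcnq5 and 46.2 and 21.2 CPM of Kcnh7. Cacna1d, which microglia hold more strongly than endothelial cells, was higher in fluconazole microglia, inside the fold (0.21, 0.14 to 0.29).

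Markers of excitatory neurons were read beside these values. Their summed CPM in the fluconazole and vehicle libraries was 119 and 202 in oligodendrocyte precursors (log2 ratio -0.76, -1.13 to -0.40; 4 of 6 lower), 23.7 and 31.8 in endothelial cells (-0.42, -0.65 to -0.19; 6 of 6 lower), 12.6 and 18.6 in oligodendrocytes (-0.56, -1.07 to -0.06; 4 of 6 lower), 38.9 and 49.99 in astrocytes (-0.36, -0.79 to 0.06; 5 of 6 lower) and 28.6 and 29.8 in microglia (-0.06, -0.25 to 0.13; 5 of 6 lower). None of the 6 markers was at 0 in both libraries in these 5 classes. Free RNA was also subtracted, scaled by the C1q genes and therefore from every class but microglia and border macrophages. Over the other 7 classes 10 of 40 measured pairs were then lower and 4 higher, against 30 lower and 3 higher of 77 before. Lower were 7 of 15 in oligodendrocyte precursors, 3 of 6 in astrocytes, 0 of 5 in endothelial cells and 0 of 6 in oligodendrocytes. In endothelial cells 2 of the 5 were then higher, against 0 of 17 before. The share over all genes after subtraction is not given. The microglial values were not changed by this step. Genes with high glial or vascular levels went both ways, and the source of these ratios was not tested. In oligodendrocytes Kcna1 was 435 and 366 CPM (0.25, 0.15 to 0.34), Hcn2 236 and 214 CPM (0.14, 0.02 to 0.27) and Kcna6 106 and 105 CPM (0.02, -0.17 to 0.20). Lower in the fluconazole library was Kcnd2 in astrocytes (293 and 418 CPM). Kcnq3 in oligodendrocytes (544 and 556 CPM) and Cacna1c in fibroblasts (347 and 413 CPM) had overlapping intervals. In mural cells Cacna1c was 1034 and 953 CPM (0.12, 0.02 to 0.22). Kcna2, highest in astrocytes, read 68.3 and 75.5 CPM there, with overlapping intervals (58.1 to 79.8 and 64.1 to 88.2).

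Oligodendrocyte precursors, the glial class with most channel transcripts, had several well-covered genes lower. Kcnh7 read 380 CPM in the fluconazole and 760 CPM in the vehicle library (-1.0, -1.20 to -0.80), Kcnq5 664 and 976 CPM (-0.56, -0.71 to -0.40) and Kcnb2 302 and 486 CPM (-0.69, -0.92 to -0.46). Kcnd2, the leading channel gene of this class, did not follow, at 2641 and 2475 CPM (0.09, 0.01 to 0.18). Of the wider family, 14 of 25 measured genes were lower past the fold in precursors and 0 higher. Of all 3728 measured genes there, 15.2% were lower and 18.9% higher. Astrocytes had higher Kcnq3 at 297 and 221 CPM (0.42, 0.25 to 0.60) and lower Kcnd2 at 293 and 418 CPM (-0.51, -0.66 to -0.37), and fibroblasts had higher Cacna1e (175 and 106 CPM, 0.73) and Kcnq3 (138 and 89.6 CPM, 0.62). Of those Kcnq3 UMIs 23.5% in the fluconazole and 33.3% in the vehicle library lay in 1 barcode. Mural cells had lower Kcnq5 at 46.0 and 100 CPM (-1.13, -1.53 to -0.73), and -0.93 without the richest barcodes. In neuroblasts Kcnq5 (36.3 and 78.1 CPM, -1.10, -1.54 to -0.69) and Kcnq3 (24.8 and 43.5 CPM, -0.81, -1.35 to -0.30) were lower, at low levels. Blood leukocytes had all 3 measured genes lower past the fold, where 15.5% of all 3186 genes were lower and 23.2% higher. Among them was Kcnd2 with 9 UMIs in 100 fluconazole and 132 UMIs in 250 vehicle barcodes, and 1 barcode held 28.8% of the vehicle UMIs. With free RNA subtracted, 0 channel genes were measured in leukocytes.

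**Figure D5:**
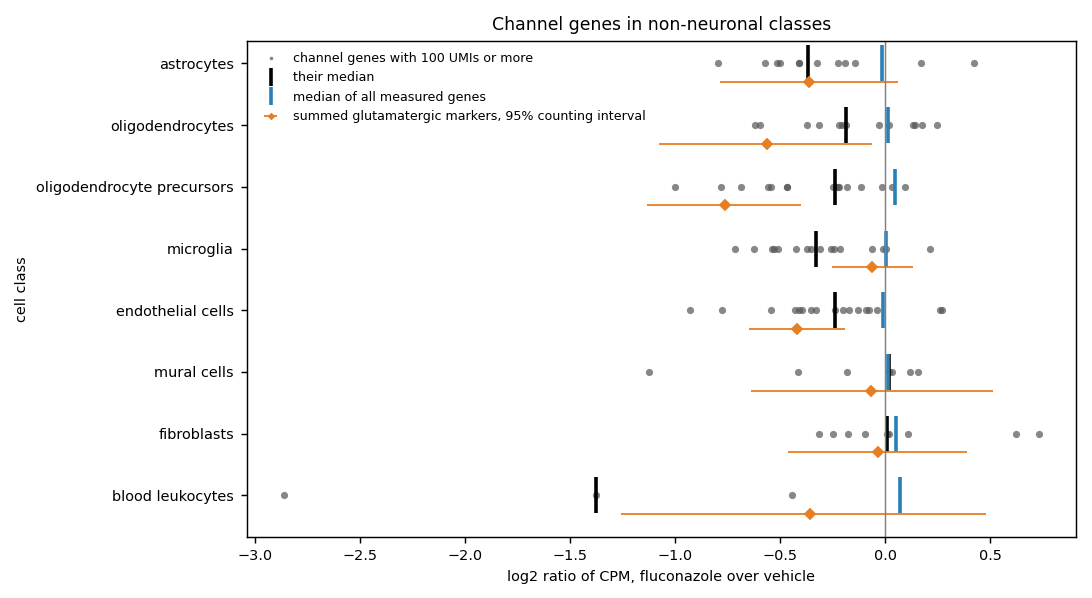
Fluconazole over vehicle ratio of CPM (log2) for each measured channel gene (grey points) in the non-neuronal classes with 3 or more measured, their median (black bar), the median of all measured genes (blue bar) and the summed glutamatergic markers with a 95% counting interval (orange). The channel medians lie left of the all-gene medians in astrocytes, oligodendrocytes, precursors, microglia, endothelial cells and leukocytes; the marker sum in microglia stands at -0.06.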

How the data were processed

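Per the file headers and values, the deposited values are raw UMI counts (whole numbers, 1 per gene in each barcode) that the authors did not normalize, for barcodes already called as cells (at least 500 UMIs each). The file header names Cell Ranger 8.0.1, and the submitters' processing notes list the mm10 build, R 4.0.3, Seurat 4.0.0 and another Cell Ranger release, 9.0.0. Aligner settings and the counting of introns are not given in the sources used here.

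From these counts, barcodes with at least 500 detected genes and at most 5% mitochondrial UMIs were kept, and doublets called with Scrublet in scanpy 1.11.5 at an expected rate of 8% (514 fluconazole and 574 vehicle barcodes, 4.07% and 3.85%) were left out. Counts were scaled to 10000 per barcode, and 2000 variable genes without the channel genes, 30 principal components, 15 neighbours and Leiden clustering (leidenalg 0.10.2, resolution 1.0) gave the clusters. A cluster was named when at least 3 markers of a class stood 2.0-fold over the mean of the other clusters and were found in at least 10% of its barcodes (1.5-fold for neuron subclasses). Clusters with markers of another class were set aside: 752 fluconazole and 709 vehicle barcodes were mixed or unnamed, and 332 and 460 more were mixed neurons. These naming rules were written with the clusters at hand, and the subclass threshold was loosened after a first look. Btbd11 was matched by gene ID.

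UMIs were summed per class and library and divided by the summed total (CPM). Intervals are exact 95% Poisson intervals for CPM, exact conditional binomial intervals for log2 ratios and Clopper-Pearson intervals for shares, and cover counting error only. A count of 0 allows up to 3 counts. The self-test of the ratios ran on simulated counts. Every channel gene is named with its highest class, those past the fold in glutamatergic neurons or a subclass with full values, and of the other 71 channel genes at most 8 in glutamatergic neurons by size of ratio. One gene that this rule selects is not reported here. The members and gene lists were chosen with earlier results of these data known. Counts over non-neuronal classes were added after seeing the data. Alternatives changed the scaling, barcode filter, doublets, depth, free RNA, minimum count, clustering genes and resolution. Other tools were Python 3.11.15, numpy 2.4.6, scipy 1.17.1, pandas 2.3.3, scikit-learn 1.9.0 and matplotlib 3.10.9.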

Additional observations from a re-analysis of the deposited data

Results flagged for a closer look

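For 5 channel genes the fluconazole over vehicle log2 ratio was 0.32 or more above 0 in 1 neuron subclass and 0.32 or more below 0 in another. Among all 39780 measured pairs of a gene and a subclass, 10.3% were higher and 11.7% lower past the fold. The share of all genes with ratios on both sides is not given here, so the 5 are not read as a trait of channel genes. The differences between subclasses were not tested, since each treatment has 1 library. Kcnc2 stood at 1.18 in L6 CT neurons (99.1 CPM fluconazole, 43.7 CPM vehicle) and at -0.37 in L5 ET neurons (43.4 and 56.1 CPM), with counting intervals that did not overlap. Its L5 ET interval included 0. Kcnh5 stood at 0.41 in L2/3 IT neurons (165 and 125 CPM) and at -0.48 in L5 ET neurons (58.6 and 82.0 CPM), also with intervals apart. Cacna1c stood at 0.34 in Vip interneurons (686 and 542 CPM) and at -0.36 in L6 IT neurons (425 and 546 CPM), with intervals apart, though that of Vip included 0. The intervals overlapped for Cacna1b, at 0.43 in Vip (293 and 217 CPM) and -0.41 in Pvalb interneurons (126 and 167 CPM), and for Kcnc1, at 0.43 in L6 IT (47.1 and 34.9 CPM) and -0.41 in L6 CT neurons (28.7 and 38.1 CPM).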

How the results depend on the processing

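For 39 results on single genes, no direction turned under any alternative run. Of their values 383 stayed within the counting interval and 9 moved. With barcodes thinned to 2000 UMIs, 3 genes were higher (Cacna1g, Kcna1, Scn3b) and 1 lower (Kcnb2) in glutamatergic neurons, against 1 and 2 unthinned, and 27 rather than 31 were measured; over subclasses 6 were higher and 8 lower of 112, against 19 and 17 of 191, and 16 of 48 non-neuronal values were lower. Thinning also moved Scn3a to -0.25 in L2/3 IT neurons, Scn2a to -0.88 in Sst and Kcnq3 to -0.15 in D1 spiny neurons. In non-neuronal classes, where 3 values were higher and 38 lower of 94, the stricter barcode filter gave 1 and 21 of 45, subtraction of free RNA 18 lower of 57 (8 of them in microglia, from which nothing was subtracted), and keeping doublets 10 higher of 108. The lean was not kept in every class. In endothelial cells 0 higher and 8 lower of 17 became 3 higher and 2 lower of 18 with doublets kept. With free RNA subtracted they became 2 higher and 0 lower of 5. In oligodendrocyte precursors 0 higher and 7 lower of 16 became 1 and 3 of 21 with channel genes kept for clustering. Thinning took astrocytes from 1 higher and 7 lower of 12 to 1 and 1 of 6. It took oligodendrocytes from 0 and 3 of 13 to 0 and 0 of 4, and microglia from 0 and 8 of 16 to 0 and 5 of 10. A minimum of 20 UMIs gave 36 higher and 32 lower of 246 subclass values and 21 and 85 of 188 non-neuronal ones. Shares over all genes are given for the main setting only. The counts under the alternatives therefore cannot be set against all genes. An unweighted mean over excitatory subclasses gave 0 higher and 1 lower of 22 genes; Cacna1g was not measured in every subclass. With channel genes kept for clustering, Kcnq3 and Kcnq5 in D1 spiny neurons stood at -0.19 and -0.15, and at resolution 2.0 Kcnq5 stood at -0.25 there and Kcnh5 at 0.25 in L2/3 IT neurons. Fewer barcodes or UMIs leave fewer genes measured in several of these settings; the cause was otherwise not tested. No paired analysis was possible because each treatment has 1 library, and for the same reason no replicate could be left out.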
